A study of Mus musculus with 10 samples.

Results

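The genes described here encode the proteins of the cytosolic ribosome of the mouse, read in frozen liver and tumor sections. Members were the genes whose symbol is Rpl or Rps and a number, then at most 1 letter (a, x, y or l) and any further digits. Rplp0, Rplp1, Rplp2 and Rpsa were added, and ribosomal S6 kinases and annotated pseudogenes were left out. Of 31053 genes in the tables, 83 had such a symbol. A member also had to average 10 CPM, its UMIs (unique molecular identifiers, 1 for each captured transcript) scaled to the same total per section, over the 10 sections, which 80 did, 48 of the large and 32 of the small subunit. The 3 that did not were Rpl10l with 2 UMIs in all sections, Rpl39l with 78 and Rpl3l with 138. The lowest member, Rpl7l1, averaged 95.8 CPM and the highest, Rplp1, 4981 CPM.

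The sections came from the ABC-Myc study, in which Alb-Cre mice, with Cre recombinase driven by albumin regulatory DNA in hepatocytes, were crossed on C57BL/6J with CAG-STOP flox/flox-Myc mice that carry a human MYC transgene. Human MYC was not among the counted genes. Each 10 µm section lay on a Visium slide, on which barcoded spots capture polyadenylated RNA, so that 1 spot samples the RNA of a few neighbouring cells. NEJ146 was sampled by 4 adjacent sections, whereas NEJ634, NEJ638, NEJ723, NEJ654, NEJ677 and NEJ687 had 1 section each. Every label reads hepatoblastoma, and the protocol of the 6 single sections speaks of tumor and normal liver without assigning them. The text of the study calls NEJ687, NEJ634, NEJ723 and NEJ146 tumors, and it counts 3 healthy livers without naming them, which leaves NEJ638, NEJ654 and NEJ677. Each tissue was therefore kept as its own group, no average over tumors or livers was formed, and no difference between tissues was tested. Tumors of the study are ABC-Myc, with 1 Alb-Cre and 1 CAG-MYC allele, and the normal controls are littermates that lack one or both of these. Age and sex of the single tissues, and the genotype of NEJ638, NEJ654 and NEJ677, are not given in the sources used here.

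Markers did not bear out the label in every tissue. Afp, the fetal serum protein made by hepatoblastoma, stood at 3.79 CPM in NEJ654, 4.96 in NEJ677 and 9.63 in NEJ638, against 2023 to 4248 CPM in the other 4 tissues. Igf2 and Dlk1 were below 1 CPM in NEJ638, NEJ654 and NEJ677. The remaining genes of that list, Gpc3 and Epcam, were low in several tissues and did not divide them, with 5.12 and 5.08 CPM in NEJ638 against 4.06 and 2.09 in NEJ687. NEJ638, NEJ654 and NEJ677 are therefore called by number only. The tissue spots held 39280329 to 117077925 UMIs per section. NEJ146 also differed from the rest in its labelled molecule (total RNA, against polyA RNA) and in its mitochondrial share, 6.78 to 7.22% of UMIs against 2.46 to 3.86%, and its batch cannot be told apart from its tissue. Spot barcodes belong to the slide design, and 4989 of 4992 occurred in every section, so they do not mark shared cells.

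A eukaryotic ribosome is built from ribosomal RNA and about equal numbers of each ribosomal protein, and cells must make its many proteins together. MYC is a known activator of ribosomal RNA synthesis, of ribosomal protein genes and of the nucleolar factors that assemble both. Ribosomal protein messages usually begin with a C followed by an unbroken run of C and T, the terminal oligopyrimidine tract, through which mTORC1 and LARP1 control their translation. Some members have paralogues that are used in particular tissues, such as Rpl39l and Rpl10l in the testis and Rpl3l in muscle.

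The sequence around the transcription start is shown for members on which the results turn, and not all of them have such a run. Promoter windows of 300 bases from RefSeq (GRCm38.p6) matched 60 of the 80 members, and 9 of the matched members had several entries, of which the first was used. The 10 bases before and the 20 bases from the annotated start follow, written 5′ to 3′, with the C and T run that covers the start, or begins within 5 bases of it, in capitals. The first 7 are members with a wide range or a single departure, and the others are paralogues of the pairs described and common partners that had an entry.
Rpl14 (chr9:120571507-120571536, plus strand): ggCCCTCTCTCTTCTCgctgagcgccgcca
Rps10 (chr17:27635225-27635254, minus strand): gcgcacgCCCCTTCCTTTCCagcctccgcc
Rpl35 (chr2:39005112-39005141, minus strand): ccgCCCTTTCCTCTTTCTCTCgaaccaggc
Rps12 (chr10:23787190-23787219, minus strand): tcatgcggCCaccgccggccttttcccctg
Rplp0 (chr5:115559457-115559486, plus strand): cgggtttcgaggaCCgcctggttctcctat
Rpl10 (chrX:74270806-74270835, plus strand): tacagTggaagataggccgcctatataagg
Rps27 (chr3:90213629-90213658, minus strand): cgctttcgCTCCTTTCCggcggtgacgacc
Rps27l (chr9:66946076-66946105, plus strand): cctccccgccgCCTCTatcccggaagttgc
Rpl22 (chr4:152325716-152325745, plus strand): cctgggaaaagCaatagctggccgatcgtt
Rpl22l1 (chr3:28805498-28805527, plus strand): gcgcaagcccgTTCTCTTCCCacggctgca
Rpl36a (chrX:134585644-134585673, plus strand): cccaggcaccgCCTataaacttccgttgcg
Rpl36al (chr12:69184048-69184077, minus strand): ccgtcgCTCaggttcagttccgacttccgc
Rpl7l1 (chr17:46782637-46782666, minus strand): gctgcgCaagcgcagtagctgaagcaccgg

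Runs of 8 or more bases stood at or near the start of 19 of the 60 members, or 31.7%, against 6.29% of all 27025 promoters, 6.33% of those of genes with 10 or more CPM and 14.3% of the 273 promoters of genes with 400 or more CPM. Here and below, such backgrounds of genes or promoters include the members themselves. The longest run among members measured 21 bases, in Rpl7a. Rps12 and Rplp0 had a run of 2 bases near the annotated start and Rpl10, Rpl22 and Rpl7l1 of 1, none of them covering it. The printed bases of Rps12 hold a longer run further downstream, which the rule does not count. A start annotated a few bases away would change such a value. The letters CCGGAAG, the site read by GABP and other ETS factors, were found on either strand in 24 of the 60 windows of 300 bases, or 40.0%, against 9.12% of all promoters, 20.7% of those of genes with 10 or more CPM and 17.6% of those with 400 or more. CACGTG, the E-box that MYC can bind, was found in 5 of 60, or 8.33%, beside 7.24%, 11.1% and 10.6% of the same backgrounds. TATAA was found in 16 of 60, or 26.7%, beside 25.5%, 13.8% and 28.9%. A match describes letters and not binding. Members with a run of 8 or more had a median fold between tissues of 5.86 and the 41 others 5.17, with ranges of 4.17 to 7.81 and 2.13 to 9.91 that overlapped.

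Summed over the members, ribosomal protein UMIs made up between 4.04 and 21.02% of a tissue's UMIs, and the tissues fell into a high and a low set. The highest was NEJ146 with 21.02 ± 1.07% (SD, n = 4 sections), whose sections gave 20.04, 20.5, 21.1 and 22.5%. NEJ723 gave 20.3%, NEJ634 19.0% and NEJ687 14.6%. The low set was NEJ677 with 5.17%, NEJ638 with 5.05% and NEJ654 with 4.04%, so that the highest tissue was 5.20-fold above the lowest. The step from NEJ687 down to NEJ677 measured 1.499 on the log2 scale, against an SD of 0.07 between NEJ146 sections. NEJ146 and NEJ723 differed by 0.05 and NEJ677 and NEJ638 by 0.03, which lies within that SD. These steps are in CPM and were not measured under other scaling. TMM scaling, which matches the bulk of genes between libraries, divides CPM by 1.16 in NEJ687 and by 0.822 in NEJ677. It divides by 1.21 in NEJ723 and by 0.956 to 0.990 in NEJ146. TMM would thus narrow the step from NEJ687 to NEJ677 and widen the gap between NEJ146 and NEJ723. Counting error was small beside these steps, the exact Poisson interval (95%) for NEJ654 running from 4.04 to 4.05%. Such intervals cover counting error only, and in sums over a section fewer cells of a type and less RNA per cell cannot be told apart.

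**Figure D1:**
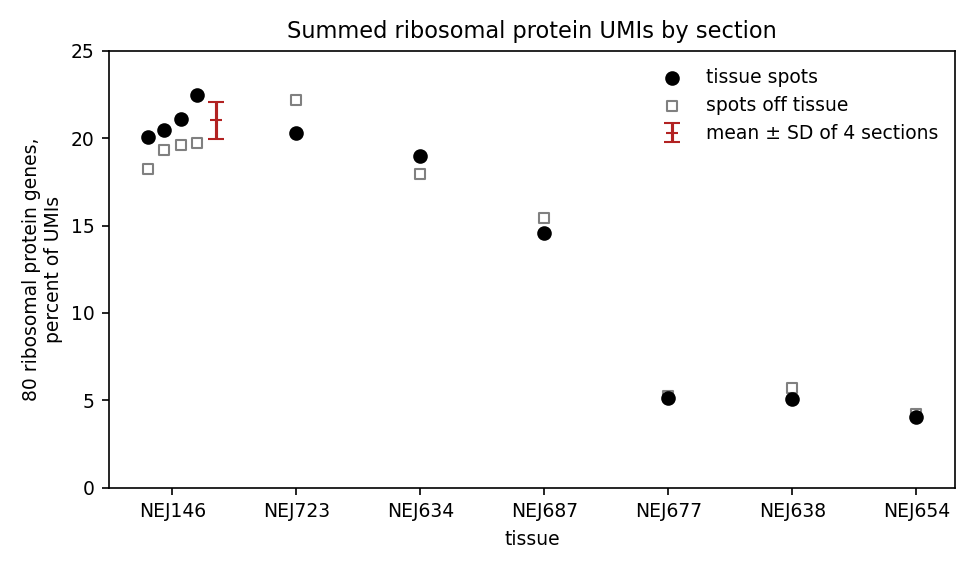
Percent of UMIs from the 80 ribosomal protein genes (vertical axis) in each section by tissue, with black points for tissue spots, open squares for spots off tissue (in NEJ146, spots under 8000 UMIs) and a red bar for the mean ± SD of the 4 NEJ146 sections. NEJ677, NEJ638 and NEJ654 lie at or below 5.68% in both kinds of spot, and the other tissues at 14.6% or above.

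Spots called off the tissue carried shares near those of the tissue in the same section. They held 22.2% in NEJ723, 17.96% in NEJ634 and 15.4% in NEJ687, and in NEJ654, NEJ677 and NEJ638 they held 4.24, 5.25 and 5.68%. These spots were not empty, holding 6.81% of the UMIs of NEJ687, 27.3% of NEJ638 and 37.5 to 43.0% of those of NEJ634, NEJ654, NEJ677 and NEJ723. The section NEJ654 had a mean of 12424 UMIs in a spot off tissue beside a median of 17062 in a tissue spot. In NEJ638 these values were nearly equal, at 12329 and 12535 UMIs. NEJ146 has no tissue calls here, and its spots under 8000 UMIs, which may lie on tissue, held 18.2 to 19.7%.

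Several lists of other transcripts also separated the high from the low set. The 13 secreted hepatocyte proteins of one list, among them Alb and Ttr, summed to 158402 to 192355 CPM in NEJ638, NEJ654 and NEJ677 and to 55491 to 72611 CPM in the other 4. Ordered by tissue, these sums rose as the ribosomal protein share fell, except that NEJ634 and NEJ723 changed places. The 4 adult globin genes, marks of erythroid cells, were each lowest in NEJ638, NEJ654 and NEJ677, with sums of 79.99 to 226 CPM against 915 to 9419 CPM. The 8 neutrophil genes summed to 9.32 to 23.4 CPM against 348 to 1156 CPM, with Mpo at 0 in NEJ654. Within the high set the globin and neutrophil sums did not follow the order of the ribosomal protein share. The 8 macrophage genes summed to 621 to 2179 CPM in the high and 386 to 652 CPM in the low set, which overlapped. The endothelial list summed to 79.7 to 163 CPM in the high and 172 to 202 CPM in the low set, but only Kdr and Clec4g of its 6 genes had the low set as the 3 highest tissues, and Pecam1, Lyve1 and Cdh5 were highest in NEJ687. The stromal list (425 in NEJ723, 617 in NEJ638) and the biliary list (74.0 in NEJ687, 136 in NEJ638) did not follow that division. The 8 lymphocyte genes stayed between 6.56 and 16.1 CPM in every section. Their part in the ribosomal protein level was not tested. With the 50 most abundant genes and the mitochondrial genome left out of the total, the distance between the highest and the lowest tissue was 2.27 on the log2 scale instead of 2.38. Members made up 18 of those 50 genes and were left out of the total only.

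The difference ran through the whole set of genes. All 80 members had a highest tissue at 2-fold or more of the lowest, beside 62.3% of the 7906 genes with 10 or more CPM and 83.5% of the 369 with 400 or more. For all 80 the 3 lowest tissues were NEJ638, NEJ654 and NEJ677, an order shared by 44.7% of genes with 10 or more CPM and 54.2% of those with 400 or more. Both held for 36% and 47.4% of these genes, among which the members are counted. The median member spanned 5.36-fold, against 2.34-fold for genes with 10 or more CPM and 3.69-fold for genes with 400 or more. A span of 5-fold or more was seen in 50 members, but the share of all genes at that span was not counted, so this number only describes the members. The members' order is one pattern seen 80 times in the same libraries and does not add replicates. CPM also shift between tissues as a whole: relative to its own mean on the log2 scale, the median gene lay between -0.32 and 0.27 and the median member between -1.35 and 1.02. NEJ146 was the highest tissue for 40 members, NEJ723 for 29, NEJ634 for 10 and NEJ687 for 1. NEJ654 was the lowest for 76, and NEJ687 was the lowest of the high set for 76. The shares of all genes with the same highest or lowest tissue were not counted, so these numbers are not shown to be particular to the members.

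**Figure D2:**
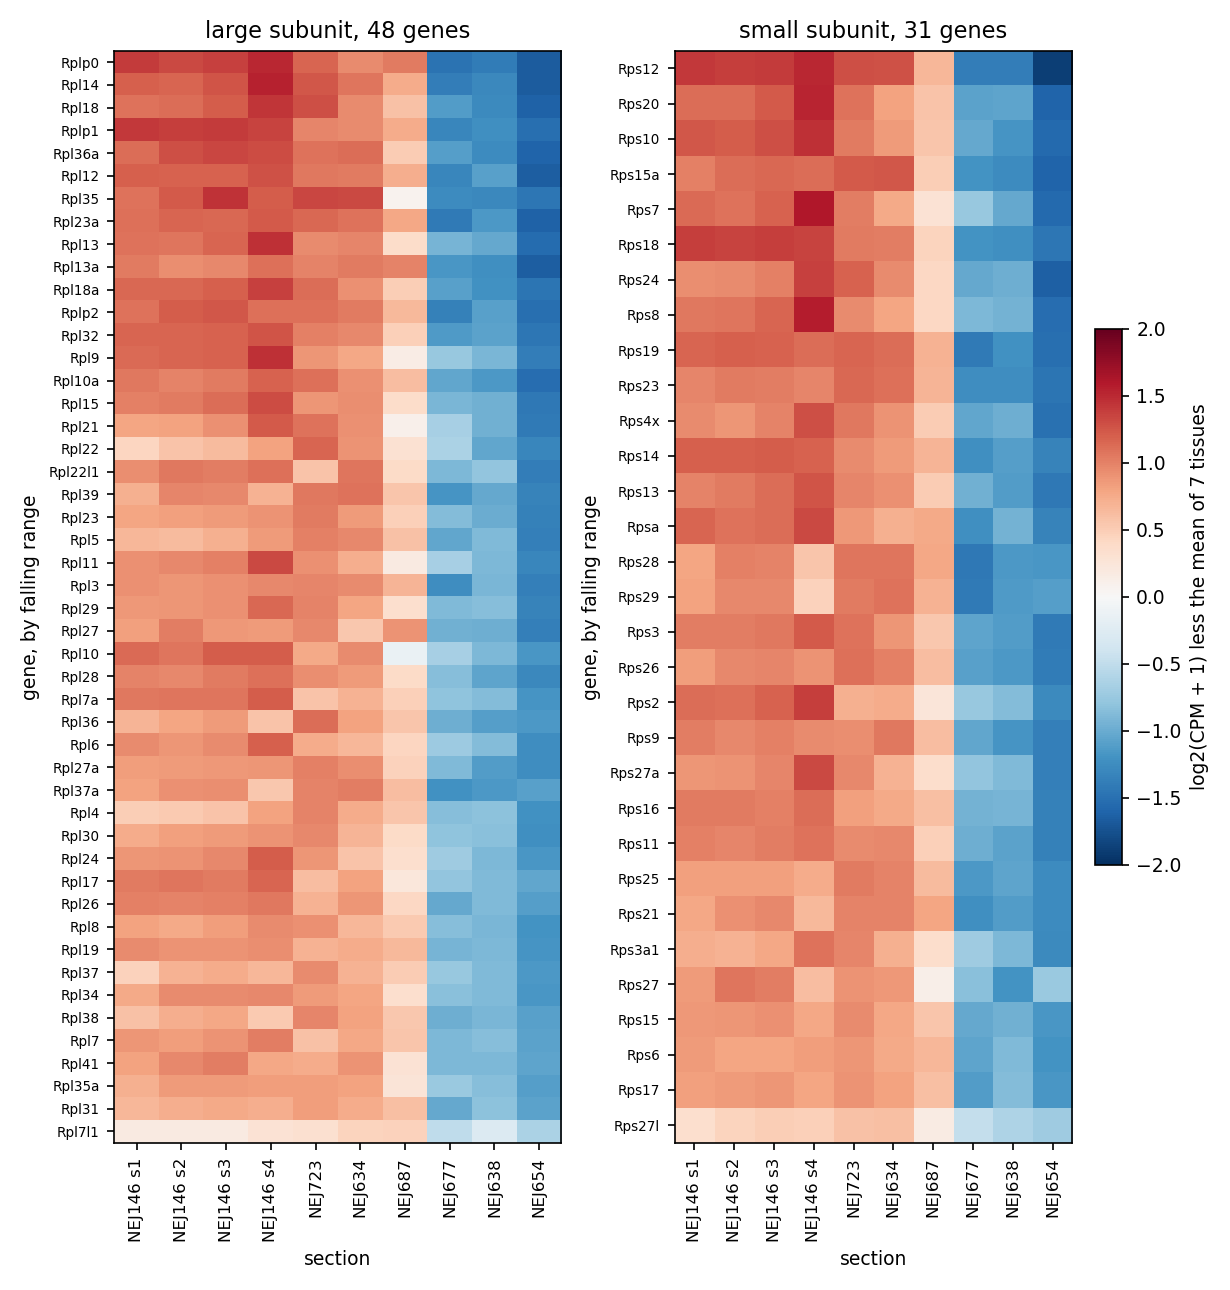
Level of each member in each of the 10 sections (columns) as log2(CPM + 1) less the mean of the 7 tissues, for 48 large and 31 small subunit genes sorted by range. The 79 members drawn lie above their mean in NEJ146, NEJ723 and NEJ634 and below it in NEJ677, NEJ638 and NEJ654, and in NEJ687 Rpl10 is the exception below it.

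Both subunits took part. Large subunit members had a median span of 5.05-fold and small subunit members of 5.66-fold. Within the ribosomal protein UMIs, the share of the large subunit was 56.1 ± 0.42% in NEJ146 (SD, n = 4), 56.6% in NEJ687, 56.8% in NEJ723 and 57.0% in NEJ634. In NEJ638, NEJ654 and NEJ677 it was 58.4, 59.1 and 59.2%. The large subunit share was thus higher in the low set, and the sets did not overlap.

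Rps12, a protein of the small subunit head, spanned the widest range, 9.91-fold. It stood at 4976 ± 198 CPM in NEJ146 (SD, n = 4), 4514 in NEJ723, 4492 in NEJ634, 2936 in NEJ687, 708 in NEJ638, 705 in NEJ677 and 501 in NEJ654. Its gene lies at chr10:23785183-23787275 (GRCm38, minus strand). NEJ687, the lowest of the high set, lay 2.05 above NEJ638 on the log2 scale, so the sets did not overlap. Rplp0, the base of the ribosomal stalk that recruits elongation factors, followed with 8.40-fold, from 3469 ± 193 CPM in NEJ146 to 412 in NEJ654. Its partners on the stalk, Rplp1 and Rplp2, spanned 7.43-fold and 6.35-fold. Rplp1 reached 7573 ± 140 CPM in NEJ146 and 1018 to 1231 CPM in the low set. Rpsa, also known as the laminin receptor, spanned 5.71-fold, from 3876 ± 289 to 678 CPM.

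Other members with wide spans were Rpl14 with 7.81-fold, Rpl18 with 7.56, Rpl36a with 7.29, Rps20 with 7.25, Rps10 with 7.24 and Rpl12 with 7.22. Some members named for their roles were looked at as well. Rpl5 and Rpl11, which with 5S RNA can bind MDM2 and so stabilize p53, spanned 5.17-fold and 5.14-fold. Rpl11 stood at 3180 ± 435 CPM in NEJ146, 2871 in NEJ723, 2526 in NEJ634, 1721 in NEJ687, 962 in NEJ677, 815 in NEJ638 and 617 in NEJ654. Rps6, the substrate of S6 kinase, spanned 4.20-fold. Rps19, mutated in Diamond-Blackfan anemia, spanned 6.38-fold, and Rpl10a, a large subunit protein, 6.16-fold.

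At the other end were 5 members with spans of 3.85-fold or less. Rpl7l1, a paralogue of Rpl7 that acts in assembly of the large subunit, spanned 2.13-fold, from 57.1 CPM in NEJ654 to 123 in NEJ687. Rps27l, a p53 target, spanned 2.49-fold, from 552 CPM in NEJ654 to 1378 in NEJ634. Rpl31, Rpl35a and Rpl41 spanned 3.76, 3.82 and 3.85-fold. Under TMM scaling, which matches the bulk of genes between libraries, 78 of 80 members still reached 2-fold. The share of all genes that did so under this scaling was not counted.

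Most members kept to the level of the set. A member was called apart where, in some tissue, its log2(CPM + 1) less its own mean over tissues differed by more than 0.5 from the median member, and 6 were. The median of the members' largest departures was 0.29. Rpl7l1 was 0.81 below the set in NEJ146 and 0.72 above it in NEJ638 and NEJ654. Rps27l was 0.58 below in NEJ146 and 0.64 above in NEJ654. These 2 paralogues thus departed in the same sense, being less spread than the set.

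Rps27, the common partner of Rps27l, was 0.60 above the set in NEJ654. It stood at 311 CPM there, 293 in NEJ677 and 227 in NEJ638. NEJ654, the lowest tissue for 76 members, was thus the highest of the low set for Rps27. Rps12 was 0.53 below the set in NEJ654. In NEJ687 alone, Rpl10 was 0.64 below the set and Rplp0 0.52 above it. Rpl10, which completes the large subunit before it can join, stood at 418 CPM in NEJ687 against 775 in NEJ723, 876 in NEJ634 and 1020 ± 49.6 in NEJ146. Rpl35 showed the same form below the threshold, with 518 CPM in NEJ687 against 1176 ± 126.9 in NEJ146, 1237 in NEJ634 and 1250 in NEJ723. Single libraries stand behind the NEJ687 and NEJ654 values. Ribosomal protein genes also have many processed copies in the genome, with which reads can be shared, so single departures are uncertain.

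**Figure D3:**
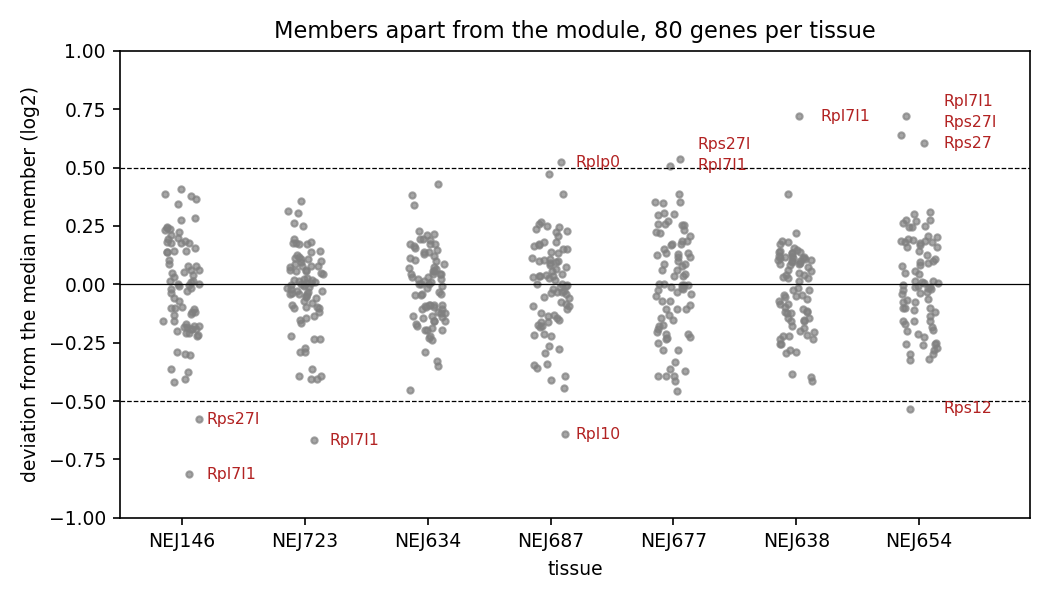
Departure of each of the 80 members (points) from the median member, on the log2 scale, in each tissue, with broken lines at 0.5 above and below and names for the members beyond them. Rpl7l1 lies at -0.81 in NEJ146 and 0.72 in NEJ654, and Rpl10 at -0.64 in NEJ687.

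Of the 8 pairs looked for, 4 gave a share that could be followed between tissues. UMIs taken near the 3′ end depend on the gene, so a share does not say which gene of a pair is the more abundant, but it can be compared between sections. Rpl36al and Rpl36a encode almost identical proteins from chromosomes 12 and X. Rpl36al made up 27.0 ± 1.10% of the UMIs of its pair in NEJ146 (SD, n = 4), 40.9% in NEJ687 (95% interval 40.5 to 41.2), 29.8% in NEJ723 and 28.9% in NEJ634. In NEJ638 it made up 57.9%, in NEJ677 57.2% and in NEJ654 57.1%. The share of Rpl36al was thus higher in the low set, with NEJ687 between the rest of the high set and the low set.

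The 2 genes behind that share had unequal spans. Rpl36a spanned 7.29-fold, from 1666 ± 109 CPM in NEJ146 to 228 in NEJ654. Rpl36al, which the symbol rule leaves out of the set because of its letters, spanned 2.26-fold, from 685 CPM in NEJ687 to 303 in NEJ654. Reads of near-identical copies can be assigned to the wrong one, so these shares are uncertain.

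The share of Rpl7l1 was also higher in the low set. It made up 5.40 ± 0.14% in NEJ146, 8.07% in NEJ687, 7.16% in NEJ723 and 6.88% in NEJ634. In NEJ677, NEJ654 and NEJ638 it made up 10.8, 11.2 and 12.2%, the exact Clopper-Pearson interval (95%) in NEJ638 running from 11.8 to 12.5%. Rps27l made up 55.9 ± 3.60% in NEJ146, 58.4% in NEJ723, 59.2% in NEJ634, 64.2% in NEJ687, 64.0% in NEJ654, 68.9% in NEJ677 and 72.2% in NEJ638. NEJ687 and NEJ654 were thus not ordered by the high and low set.

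Rpl22l1 did not follow that division. Rpl22 is an RNA-binding protein that can restrain Rpl22l1. Rpl22l1 made up 33.5 ± 1.42% of the pair in NEJ146, 31.1% in NEJ638, 29.8% in NEJ634, 28.5% in NEJ687, 26.2% in NEJ654, 23.9% in NEJ677 and 20.04% in NEJ723. NEJ723, with the highest Rpl22 at 2589 CPM, had the lowest share, and tissues of the high and the low set were mixed in the order. Rpl39l, Rpl3l and Rpl10l stayed below 0.1% of their pairs in every tissue, and Rps4l was not listed in the tables.

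**Figure D4:**
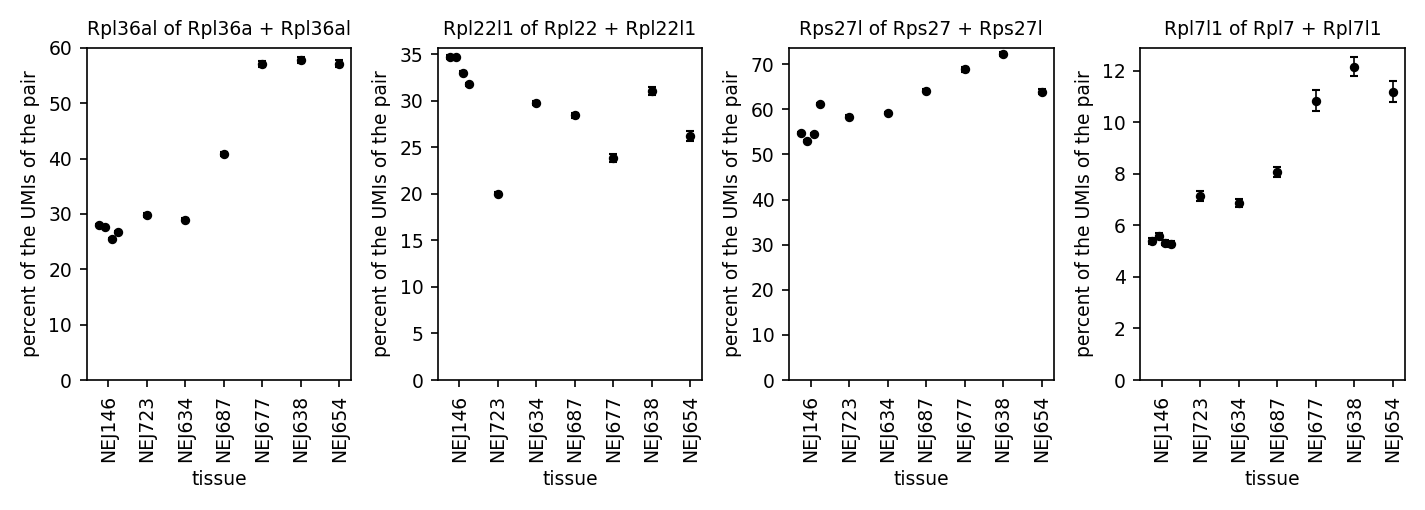
Percent of a pair's UMIs that came from the paralogue in each section, by tissue, for 4 pairs, with exact Clopper-Pearson intervals (95%) that cover counting error only. Rpl36al lies at 27.0% in NEJ146 and 57.9% in NEJ638, whereas Rpl22l1 is lowest in NEJ723 with 20.04%.

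Genes that work with the ribosome were described by lists. All 28 nucleolar assembly factors measured had NEJ638, NEJ654 and NEJ677 as lowest tissues and a span of 2-fold or more, with a median of 6.98-fold. Npm1, the nucleolar chaperone, spanned 14.8-fold and Nop56, part of the RNA-methylating particle, 32.4-fold. Within the high set the list ran differently from the ribosomal protein share. All 28 were higher in NEJ723 than in NEJ146, as were 36 of the 80 members. The list summed to 3879 CPM in NEJ146, 4592 in NEJ687, 5191 in NEJ634 and 6038 in NEJ723. Nop56, for example, stood at 425 CPM in NEJ723 and 174 ± 10.7 CPM in NEJ146 (SD, n = 4). The share of all genes that were higher in NEJ723 than in NEJ146 was not counted. Relative to its own mean on the log2 scale, the median gene lay at 0.26 in NEJ723 and -0.05 in NEJ146. Genes in general thus leaned the same way, and the count of 28 is not shown to be particular to this list. Of 16 translation factors, a list that also holds Rack1 of the small subunit, 15 had the same lowest tissues and 14 spanned 2-fold or more, with a median of 3.14-fold. Eef1b2, an exchange factor of elongation, spanned 7.67-fold, whereas Eef1a1 spanned 2.10-fold and Eef2 1.96-fold. Fau and Rack1, ribosomal proteins outside the symbol rule, spanned 3.60-fold and 4.73-fold.

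Mitochondrial ribosomal proteins spanned less. Of 77 measured, 64 had the same lowest tissues and 40 reached 2-fold, with a median of 2.04-fold, below the 2.34-fold of all genes with 10 or more CPM. The 10 proliferation genes, such as Mki67, spanned 22.03-fold in the median and were each lowest in NEJ638, NEJ654 and NEJ677. The gene outside the set most like the summed level over the 7 tissues was Eif3k, an initiation factor subunit, with a Pearson correlation of 0.997. It was followed by Snhg6, Trappc6a, Fam96a and Eef1b2. The most opposite was Gstz1, an enzyme of tyrosine breakdown, with -0.995. Over 7 points that share their libraries such values are common, and 1636 of 7826 other genes were above 0.9.

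Within a section the ribosomal protein share had a narrow range. The part in this range, and in the likeness of neighbours, of the RNA found off tissue was not tested. Between the 5th and the 95th percentile of tissue spots with 500 or more UMIs, it spanned 1.25-fold in NEJ634, 1.26 in NEJ723, 1.31 in NEJ687, 1.46 in NEJ677, 1.56 in NEJ638, 1.57 in NEJ654 and 1.54 to 1.57 in NEJ146. In NEJ654 this was a range from 2.98 to 4.68%, and in NEJ723 from 18.3 to 23.0%. The spread of spots within a section was thus far smaller than the step between the high and the low set.

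The small differences that remained were ordered in space. Moran's I, which is near 0 for a random layout and near 1 when adjacent spots are alike, was 0.68 ± 0.04 for the share in NEJ146 (SD, n = 4), 0.47 in NEJ634, 0.40 in NEJ654, 0.22 in NEJ677, 0.22 in NEJ723, 0.22 in NEJ687 and 0.18 in NEJ638. Spots with very few UMIs lowered these values. Without tissue spots under 500 UMIs, of which NEJ146 and NEJ634 had none, it was 0.68 in NEJ654, 0.67 in NEJ638, 0.54 in NEJ687, 0.50 in NEJ723 and 0.44 in NEJ677. The UMIs of a spot were themselves ordered, with a Moran's I of 0.57 to 0.75. Thinning to 5000 UMIs, which also leaves out shallower spots (NEJ687 kept 3835 of 4458), gave 0.29 to 0.66. The part of depth alone was not tested.

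Single members followed unequally, over spots with 500 or more UMIs. Averaged over the 7 tissues, Moran's I was highest for Rpl41, a very short protein, with 0.33, then Rplp1 with 0.32, Rpl21 with 0.27, Rps20 with 0.26 and Rps12 with 0.26. It was lowest for Rpl7l1 with 0.01, Rpl27 with 0.05 and Rpl13a with 0.05, the 3 members of lowest level. A value of 0.1 or more was reached by 78 members in NEJ146, where 14.7% of genes with 10 or more CPM and 97% of those with 400 or more reached it. In NEJ634 it was reached by 73 members, beside 14% and 89.7% of genes. The other tissues had fewer. NEJ638 had 51 members, beside 3.12% and 40.7%, NEJ654 had 47, beside 3.9% and 52.8%, and NEJ677 had 44, beside 3.2% and 45.3%. NEJ687 had 39, beside 4.55% and 55%, and NEJ723 had 33, beside 3.25% and 46.9%. The background at 400 or more CPM was thus far nearer to the members than that at 10 or more, and in NEJ687 and NEJ723 the share of members was the lower one.

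To see which regions held more ribosomal protein RNA, spots of a section were ranked by their share of a second gene list within 10 strata of spot UMIs and cut into 4 equal parts. The ribosomal protein UMIs per other UMI were then compared between the top and the bottom part. The 7 tissues, NEJ146 as the mean of its sections, were tested by turning their signs in every combination (exact permutation test, two-sided), with Benjamini-Hochberg adjustment over the 8 lists. With 7 tissues the smallest p is 0.0156.

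Spots rich in the translation factor list, to which Rack1 belongs, held more ribosomal protein RNA in 7 of 7 tissues, by 0.22 in the mean log2 ratio (exact permutation, adjusted p = 0.025). The ratio was 0.56 ± 0.02 in NEJ146 (SD, n = 4), 0.23 in NEJ634, 0.21 in NEJ687, 0.18 in NEJ723, 0.14 in NEJ638 and NEJ654 and 0.11 in NEJ677. Spots rich in nucleolar assembly factors were higher by 0.13 (exact permutation, adjusted p = 0.025), led by NEJ146 with 0.42 ± 0.04. In those NEJ146 spots the median gene of 400 or more CPM was itself higher by 0.24, and the median member by 0.40. In the low set this ratio was 0.01 in NEJ677, 0.05 in NEJ638 and 0.05 in NEJ654. Spots rich in proliferation genes were higher by 0.07 (exact permutation, adjusted p = 0.025), again most in NEJ146 with 0.24 ± 0.03 and least in NEJ654 with 0.01. The 10 proliferation genes summed to 36.6 CPM in NEJ677, 72.6 in NEJ654 and 190 in NEJ638, against 624 to 1100 CPM in the high set. Spots of the low set were thus ranked on few UMIs of this list, and spots with equal shares were ordered at random. For each of these lists the ratio was above 0 in 7 of 7 tissues and largest in NEJ146. Of these lists, the shift of genes in general was computed for the nucleolar one only. The 0.01 of NEJ677 for nucleolar assembly factors lay within the SD between NEJ146 sections. So did the proliferation ratios of NEJ654 (0.01), NEJ687 (0.0231) and NEJ677 (0.0269), beside an SD of 0.0312. The direction is uncertain in each of these cases, although the test rests on the signs of all 7 tissues. In nucleolar-rich NEJ677 spots 47 members were higher and 33 lower. The median member was higher by 0.0066 there and the median gene of 400 or more CPM by 0.0003. Without NEJ146 the means were 0.17, 0.08 and 0.04, and the last 2 moved by more than 1.5 times.

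**Figure D5:**
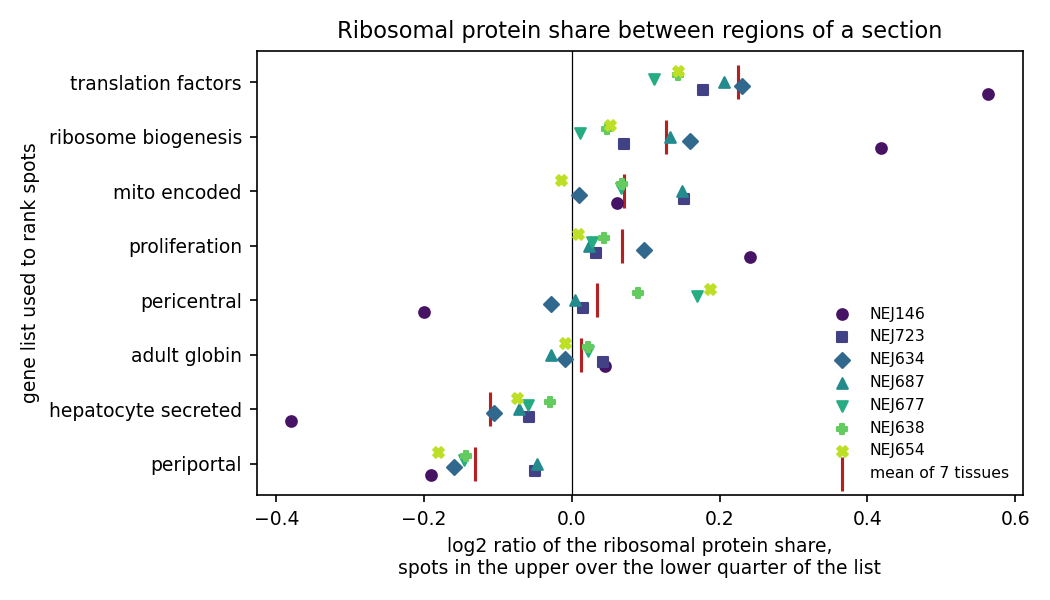
Log2 ratio of the ribosomal protein share between the top and the bottom of 4 parts of spots ranked by each of 8 gene lists (rows), for each of the 7 tissues (symbols) and their mean (red bar). Translation factor spots lie above 0 and periportal spots below 0 in 7 of 7 tissues, and the pericentral list runs from -0.20 in NEJ146 to 0.19 in NEJ654.

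Spots rich in periportal genes, such as Cyp2f2 and Hal of the inflow side of the liver lobule, held less ribosomal protein RNA in 7 of 7 tissues, with a mean log2 ratio of -0.13 (exact permutation, adjusted p = 0.025). The ratio was -0.18 in NEJ654, -0.15 in NEJ677 and -0.14 in NEJ638, and -0.19 ± 0.04 in NEJ146 (SD, n = 4), -0.16 in NEJ634, -0.05 in NEJ723 and -0.05 in NEJ687. For pericentral genes, such as Glul and Cyp2e1 of the outflow side, the tissues differed in sign. In NEJ654, NEJ677 and NEJ638 the ratio was 0.19, 0.17 and 0.09, and in NEJ146 it was -0.20 ± 0.03. NEJ634, NEJ723 and NEJ687 lay between -0.03 and 0.02, so that the mean of 0.03 did not pass (exact permutation, adjusted p = 0.547). That mean was 0.0730 without NEJ146, 0.00853 without NEJ654 and 0.0113 without NEJ677, and none of them passed. Pericentral transcripts were scarce in the high set, with a median of 1 to 5 UMIs per spot there against 35 to 70 in the low set. Most periportal UMIs of the high set came from Ass1 and Hsd17b13. In NEJ638, NEJ654 and NEJ677, then, ribosomal protein RNA was lower in periportal-rich spots and higher in pericentral-rich ones. In the periportal-rich spots of these tissues the median gene of 400 or more CPM was itself at -0.04, -0.08 and -0.04. The median member there was at -0.14, -0.18 and -0.14.

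Spots rich in secreted hepatocyte proteins held less, with a mean of -0.11 (exact permutation, adjusted p = 0.025) and -0.38 ± 0.03 in NEJ146. The -0.0292 of NEJ638 lay within the SD of 0.0304 between NEJ146 sections, so the direction there is uncertain. Without NEJ146 the mean was -0.0663. That call was lost when spots were thinned to 5000 UMIs, where the mean was -0.06 (exact permutation, adjusted p = 0.406), and NEJ638 then lay at 0.12. Without the depth strata it was -0.07 (exact permutation, adjusted p = 0.286). Mitochondrially encoded genes gave 0.07 and did not pass (exact permutation, adjusted p = 0.0625), but passed with thinned spots at 0.15 (exact permutation, adjusted p = 0.025), and adult globins 0.01 (exact permutation, adjusted p = 0.339). With 6 tissues the smallest p is 0.0312, so leaving out NEJ146 or another tissue, other than NEJ654, ended every call, at an adjusted p of 0.05 (exact permutation).

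Single members, and genes in general, were followed for the nucleolar and the periportal lists only. For the other lists it was thus not seen whether genes in general shifted with the members. In spots rich in nucleolar assembly factors, 44 members were higher in 7 of 7 tissues, beside 13.9% of genes with 10 or more CPM and 18.9% of those with 400 or more. The largest mean log2 ratios were those of Rpl22 with 0.21, Rps4x with 0.20, Rpl4 with 0.19 and Rpl5 with 0.19. NEJ146 carried these means, with 0.56, 0.70, 0.65 and 0.62, and no other tissue was above 0.225 for these genes. The smallest were those of Rps27, Rps29 and Rpl37a with 0.06 each. In periportal-rich spots, 67 members were lower in 7 of 7 tissues, beside 11.3% and 24.0% of genes. The backgrounds of both lists include the members, so the shares among other genes were lower than those printed. Rps19 had the lowest mean with -0.19, and Rps6 and Rps27a the highest with -0.05 each. These counts rest on the same spots as the tested sum, so they describe how widely it was shared and add no test.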

How the data were processed

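Visium data of 10 sections from 7 mouse tissues were used. The matrices deposited by the authors hold UMI counts of every gene in every spot, neither normalized nor filtered. Submitters' processing notes name Space Ranger 1.3 and mm10 for the 6 single sections and Cell Ranger 6.0 for NEJ146. The deposited position files, with in-tissue calls, were used for the single sections. No position file was used for NEJ146, whose spots of 8000 or more UMIs were taken as tissue and placed by barcode. UMIs were summed over tissue spots and given as CPM of all UMIs. Folds between tissues are ratios of CPM + 1, and the 4 NEJ146 sections, adjacent cuts of 1 tissue, were averaged, so their SD is technical. Positions came from GENCODE M21. Moran's I used the adjacent spots, and for single genes spots of 500 or more UMIs, a limit chosen after seeing the data. Named genes were the 10 members with the widest and 5 with the narrowest spans, the 10 with the largest departures, the 5 with the highest and 3 with the lowest Moran's I, all paralogue pairs, members fixed by role and the best measured genes of each list, and others named were chosen after their values were seen. Members and lists were chosen with earlier results of these data known. Python 3.11.15, scipy 1.17.1 and edgeR 4.0.16 (TMM only) were used. Folds and the order of tissues, the permutation test, Moran's I and the region contrast were tested on data with known answers. The other steps were not. Some genes are not reported here by name, although sums and counts include them.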

Additional observations from a re-analysis of the deposited data

Results flagged for a closer look

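Among 50 quantities with a value in each of the 4 NEJ146 sections, 5 had a section far from the other 3, where chance gives about 1 in 20. Section 4 stood apart with 2063 CPM of Rpl12 (others 1935 to 1946) and 108 CPM of Rpl7l1 (others 101). Section 1 stood apart with 2769 CPM of Rpl35a (others 3008 to 3043). In section 4 the contrast of spots rich in translation factors was 0.54 (others 0.57) and that of nucleolar assembly factors 0.36 (others 0.43 to 0.44).

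The contrast of pericentral genes was below 0 in each NEJ146 section, with -0.22 to -0.16, and above 0 in NEJ638 (0.0897), NEJ654 (0.186), NEJ677 (0.170), NEJ723 (0.0155) and NEJ687 (0.00398). The contrast of adult globins was above 0 in each NEJ146 section, with 0.00456 to 0.0948, and below 0 in NEJ634 (-0.00874), NEJ654 (-0.00943) and NEJ687 (-0.0281). The difference between these tissues was not tested, since each of the others has 1 section.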

How the results depend on the processing

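No paired analysis was possible because the other tissues have 1 section each and share no replicate number with NEJ146 that would pair them. No result changed direction under any alternative tried, although single tissues did in some contrasts. On the log2 scale, the distance between the highest and the lowest tissue was 2.38, and it was 2.18 with TMM scaling, 2.17 with median-of-ratios scaling and 2.27 without the 50 most abundant genes and the mitochondrial genome. The median range of members was 2.42, and 2.14, 2.12 and 2.26 under these settings. At thresholds of 0.3 and 1 in place of 0.5, 35 and 0 members stood apart instead of 6. The median Moran's I over tissues was 0.22, and 0.47 with thinned spots and 0.54 without spots under 500 UMIs. The contrast of mitochondrially encoded genes passed with thinned spots (0.15), without depth strata (0.16) and without NEJ654 (0.0842). That of hepatocyte proteins did not pass with thinned spots (-0.0577) or without strata (-0.0745). Leaving out NEJ146 gave 0.17 for translation factors, 0.0790 for nucleolar assembly factors, 0.0388 for proliferation, -0.0663 for hepatocyte proteins and -0.12 for periportal genes. Leaving out each of the others, chosen after seeing the data, gave 0.22 to 0.24 for translation factors, 0.12 to 0.15 for nucleolar assembly factors, 0.0627 to 0.0777 for proliferation, -0.12 to -0.11 for hepatocyte proteins, -0.15 to -0.12 for periportal genes and 0.0565 to 0.0842 for mitochondrially encoded genes. The cause was not tested, except that 6 tissues allow no smaller p. Of the results that answer a comparison, 174 values under alternatives were unchanged in call or size, 32 lost their call, 3 gained one and 10 moved, and of the others 328 were unchanged and 15 moved. Counting error limits Rpl10l, Rpl39l and Rpl3l most.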
